A study of Mus musculus with 15 samples.

Results

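The TGF-beta ligands and their receptors were followed through 8 conditions of cultured mouse cells in 8 genes: the ligands *Tgfb1*, *Tgfb2* and *Tgfb3*, the signalling receptors *Tgfbr1*, *Tgfbr2* and *Acvrl1*, and the co-receptors *Eng* (endoglin) and *Tgfbr3* (betaglycan). They were taken by gene symbol from the 44674 genes of a bulk RNA-seq count table, and all 8 were measured in every library. Of all conditions, the Emcn+ cells of the first marrow culture held the highest levels of *Tgfb1* and *Eng* and the lowest of *Tgfb3* and *Tgfbr3* in both replicates, and they shared the highest *Tgfb2* with marrow stromal cells. *Acvrl1* and *Tgfbr1* did not differ between the conditions beyond the spread of their replicates.

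TGF-beta ligands are secreted as latent complexes that must be activated outside the cell. The active ligand binds the type II receptor TGFBR2, which recruits and phosphorylates a type I receptor. That type I receptor is TGFBR1 (ALK5) in most cells, which phosphorylates SMAD2 and SMAD3, and in endothelial cells also ACVRL1 (ALK1), which phosphorylates SMAD1, SMAD5 and SMAD9 and whose main ligands are BMP9 and BMP10. Endoglin and betaglycan bind ligand without signalling themselves. Endoglin is abundant on endothelial cells, loss-of-function variants of the human *ENG* and *ACVRL1* genes cause hereditary haemorrhagic telangiectasia, and betaglycan is needed for high-affinity binding of TGF-beta2 in cells that carry it.

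The study asked whether bone marrow endothelial cells (BMECs) can be grown in culture from whole bone marrow (WBM) and how the cells sorted by endomucin (Emcn), a surface sialomucin of venous and sinusoidal endothelium, differ. BMECs and lung cells came from mice 4 to 6 months old that carried *Tie2-CreERT2* and *Rosa26-tdTomato*, in which tamoxifen turns on tdTomato in cells that use the *Tek* promoter. MSC are tdTomato+ stromal cells of *Osx-Cre;Rosa26-tdTomato* marrow, grown in a medium for mesenchymal cells, so their medium differed from the EGM-2 endothelial medium of the others. The GEO labels give the genotype of all libraries as WT. The groups were P0 Emcn+ and P0 Emcn- (viable CD45- tdTomato+ cells sorted from the first WBM culture at about 2 weeks), Lung (Emcn- cells of lung cultures), MSC, and P1, P2 and P3 (Emcn- cells of later passages), with 2 libraries each, and P4 with 1. A tdTomato+ cell in the *Tie2-CreERT2* cultures is any cell that used the *Tek* promoter under tamoxifen or descends from one.

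By the labels, the 15 libraries fell into 4 batches: the first held replicate 1 of both P0 populations and of Lung, and the other three held their replicate 2, replicate 1 of P1 to P3 with P4, and replicate 2 of P1 to P3 with both MSC libraries. P0 and Lung therefore share no batch with the passages or MSC, and in comparisons across that line the condition and the batch cannot be told apart. Library totals ranged from 9914620 to 39718807 counts, so that 3 counts stand for 0.0755 to 0.303 CPM (a gene's count scaled to the library total). The replicates of each group are described as separate cultures from different animals, and p-values measure the spread between these libraries. The lowest count of any member in any library was 127, for *Tgfb3*, and all 8 members passed the filter on low counts.

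The endothelial label was checked with 10 markers fixed for it. Their summed level was 10626 to 12682 CPM in P0 Emcn+, 69.9 to 275 CPM in P0 Emcn-, 166 to 622 CPM in Lung, 42.7 to 362 CPM in MSC and 44.8 to 70.4 CPM in the passaged cells. *Cdh5*, the endothelial cadherin, stood at 6222 and 5118 CPM in P0 Emcn+, at 119 and 6.35 CPM in P0 Emcn-, at 39.5 and 171 CPM in Lung and at no more than 2.33 CPM in passaged cells, and *Cldn5* was at 0 in P4. Of the 10 markers, *Kdr* alone had a higher mean in P3 (22.8 CPM) than in P0 Emcn- (8.33 CPM). *Tek* had means of 34.9 CPM in P0 Emcn-, 35.2 CPM in P1 and 15.3 CPM in P3. In Lung and MSC it had 6.59 and 5.49 CPM. *Pecam1* had means of 26.5 CPM in P0 Emcn- and 11.1 CPM in P3. Summed markers of fibroblasts ran the other way from the endothelial sums, at 234 to 299 CPM in P0 Emcn+ against 16482 to 21434 CPM in P0 Emcn-, 13210 to 14376 CPM in Lung and 11044 to 19623 CPM in MSC. The cells labelled as Emcn- BMECs and lung cells are therefore called by their labels here and not as endothelial cells. In bulk RNA, fewer cells of a type and less RNA per cell cannot be told apart.

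*Tgfb1* (ENSMUSG00000002603; GRCm38 chromosome 7, 25687002 to 25705077, plus strand) encodes TGF-beta1, the ligand made by most blood and endothelial cells. The P0 Emcn+ replicates had 291 and 191 CPM, the P0 Emcn- replicates 58.0 and 21.6 CPM, Lung 35.7 and 37.5 CPM, and MSC 38.2 and 71.7 CPM. The passaged cells had 19.4 and 19.8 CPM (P1), 21.9 and 19.0 CPM (P2), 29.0 and 25.1 CPM (P3) and 20.2 CPM (P4). Both libraries of P0 Emcn+ lay above all 13 others, and P0 Emcn- and MSC overlapped. In the order of mean levels P0 Emcn+ differed from MSC, its nearest neighbour (adjusted p = 0.00237, edgeR), and no other neighbours differed beyond their spread.

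*Tgfb2* (ENSMUSG00000039239; chromosome 1, 186622792 to 186705989, minus strand) encodes TGF-beta2, the ligand that binds TGFBR2 poorly without betaglycan. P0 Emcn+ had 134 and 208 CPM of it, P0 Emcn- 62.8 and 36.5 CPM, Lung 10.8 and 27.5 CPM, and MSC 185 and 122 CPM. P1 gave 89.5 and 72.2 CPM, P2 77.8 and 62.0 CPM, P3 76.3 and 62.4 CPM, and P4 82.3 CPM. P0 Emcn+ and MSC overlapped at the top, Lung was lowest in both libraries, and no neighbours in the order of means differed beyond their spread. Of its exons, 124 bases lie opposite *Gm29491*.

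*Tgfb3* (ENSMUSG00000021253; chromosome 12, 86056745 to 86079041, minus strand) encodes TGF-beta3, a ligand of mesenchymal and palatal tissue. P0 Emcn+ held 4.02 and 5.10 CPM of it, whereas P0 Emcn- held 78.8 and 62.0 CPM, Lung 51.9 and 57.4 CPM, and MSC 140 and 211 CPM. After passaging, P1 held 57.2 and 69.7 CPM, P2 50.9 and 74.0 CPM, P3 48.3 and 72.3 CPM and P4 53.2 CPM. This was the widest range of the 8 members, 52.5-fold between the lowest and the highest library, with P0 Emcn+ alone at the bottom and MSC alone at the top. Both steps passed the test between neighbours, MSC over P0 Emcn- (adjusted p = 0.00253) and P4 over P0 Emcn+ (adjusted p = 1.45e-05), and the conditions between them did not differ beyond their spread. Its exons share 420 bases with *Gm37804* and *Gm48008* on the opposite strand, and the strand setting of the counting is not stated.

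**Figure D1:**
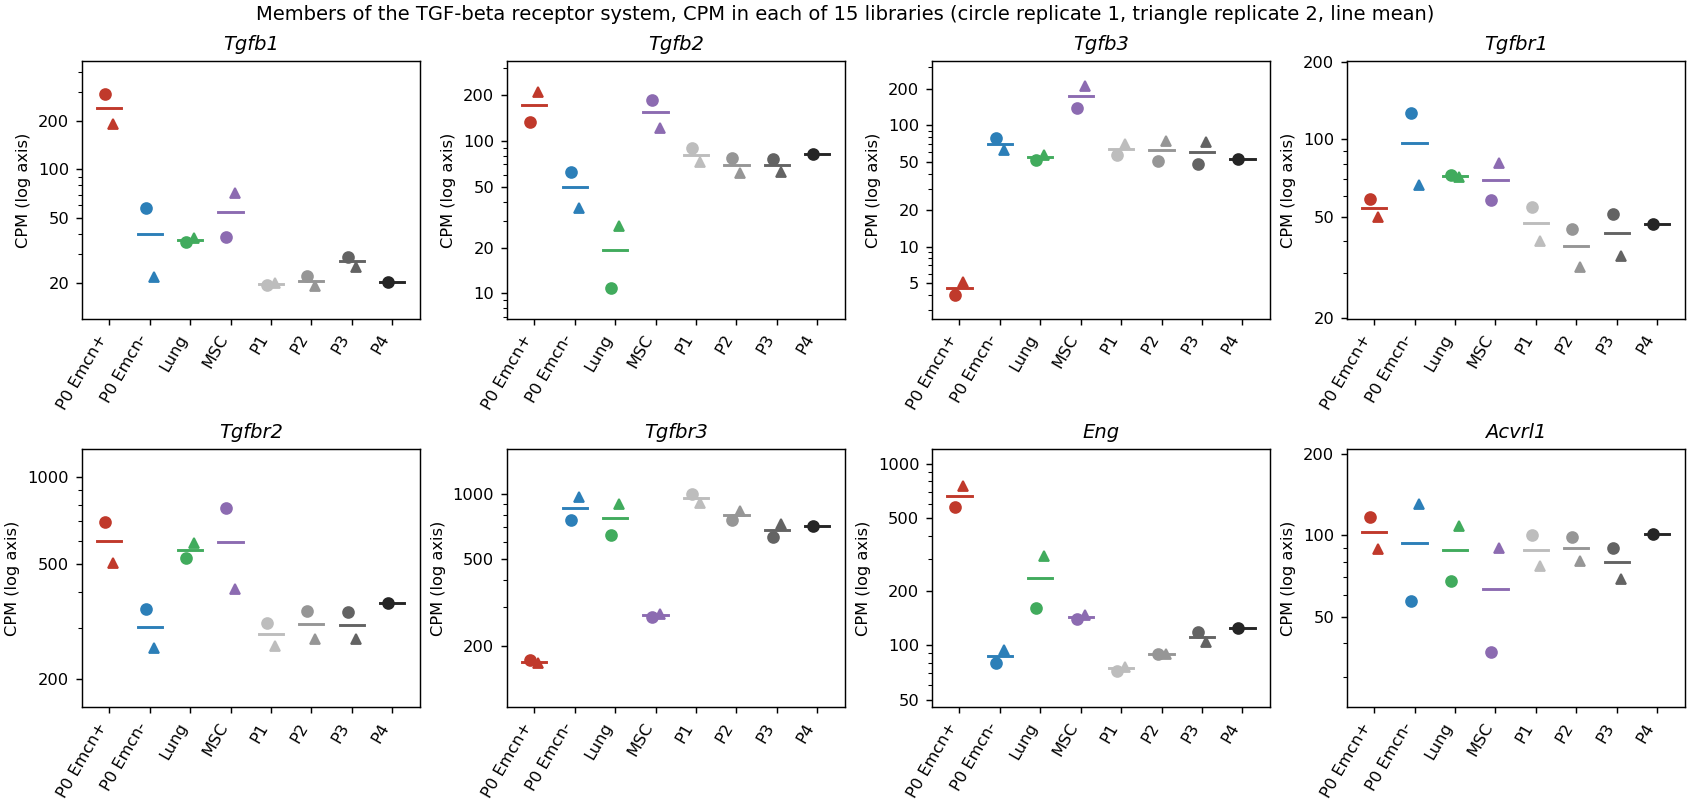
CPM of each of the 8 members (y axis, log scale) in the 15 libraries by condition (x axis), with circles for replicate 1, triangles for replicate 2 and a line at the mean. *Tgfb1* and *Eng* are highest and *Tgfb3* and *Tgfbr3* lowest in both P0 Emcn+ libraries, while *Acvrl1* stays between 37.0 and 130 CPM throughout.

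To compare the ligands with each other, CPM was divided by the length of each gene's merged exons in kilobases (CPM per kb). In P0 Emcn+, *Tgfb1* made up 70.4% and 50.2% of the summed ligand level, *Tgfb2* 28.1% and 47.8%, and *Tgfb3* 1.45% and 2.00%. In P0 Emcn-, *Tgfb3* made up 51.0% and 63.4% and *Tgfb1* 25.2% and 14.8%. *Tgfb3* was likewise the largest share in Lung (63.1% and 58.2%), in MSC (51.1% and 63.9%) and in each passaged library (43.0% to 60.2%). On merged exons the largest share was thus *Tgfb1* in P0 Emcn+ and *Tgfb3* in the 13 other libraries. *Tgfb1* made up 10.4% to 17.3% of the mix in passaged cells, and *Tgfb2* 7.70% and 16.3% in Lung. The summed level was 82.1 and 75.3 CPM per kb in P0 Emcn+, 45.6 and 28.9 in P0 Emcn-, 24.3 and 29.2 in Lung, 80.8 and 97.7 in MSC, and 32.8 to 37.1 in passaged cells. Dividing by the longest transcript in place of the merged exons moved *Tgfb1* to 80.6% and 63.7% in P0 Emcn+ and *Tgfb3* to 40.1% and 54.1% in P0 Emcn-. On that scale *Tgfb2* was slightly the larger share in P4 (40.6% against 39.7% for *Tgfb3*) and in replicate 1 of P1 (41.7% against 40.3%), P2 (39.2% against 38.8%) and P3 (36.8% against 35.3%), so the order of these 2 ligands in those 4 libraries depends on the length used.

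**Figure D2:**
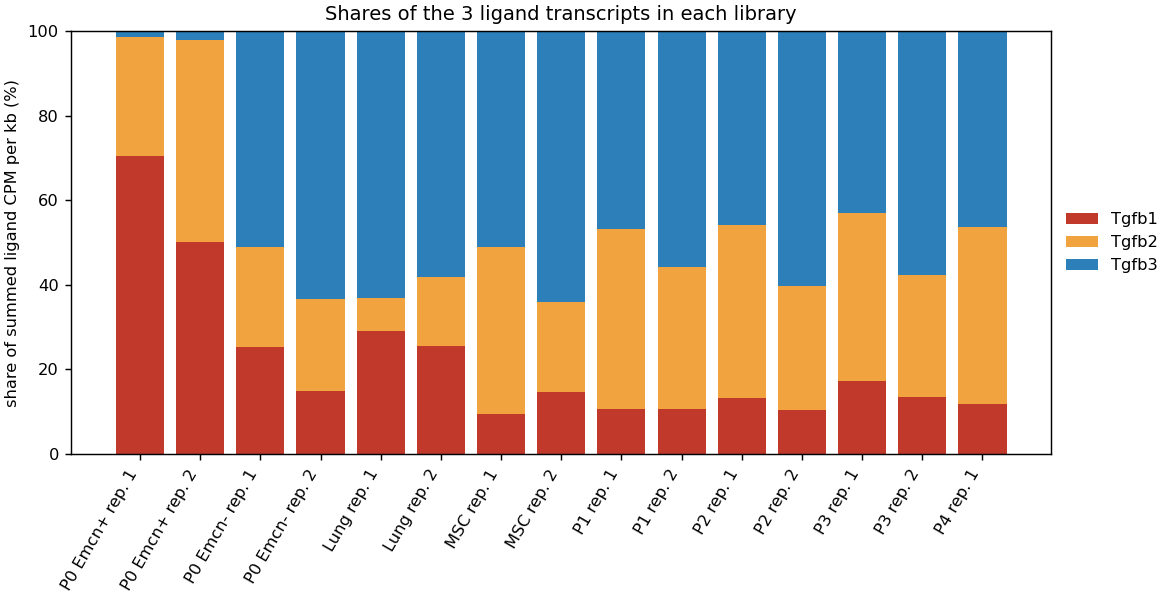
Share of *Tgfb1*, *Tgfb2* and *Tgfb3* in the summed ligand level in CPM per kb of merged exons (y axis, percent) for each of the 15 libraries (x axis). *Tgfb3* takes under 2.1% of the bar in both P0 Emcn+ libraries and at least 43.0% in the 13 others.

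*Tgfbr2* (ENSMUSG00000032440; chromosome 9, 116084293 to 116175360, minus strand), the type II receptor that binds ligand first, was at 694 and 501 CPM for P0 Emcn+, 348 and 255 CPM for P0 Emcn-, 524 and 589 CPM for Lung, and 778 and 408 CPM for MSC. Passaged cells had 259 to 343 CPM in P1 to P3 and 365 CPM in P4. It varied over the conditions (F test, adjusted p = 0.0440), with P0 Emcn+, MSC and Lung overlapping at the top and no neighbours that differed. *Tgfbr1* (ENSMUSG00000007613; chromosome 4, 47353222 to 47414931, plus strand), the type I receptor ALK5, was at 58.3 and 49.8 CPM for P0 Emcn+, 126 and 66.6 CPM for P0 Emcn-, 72.8 and 71.1 CPM for Lung, 58.1 and 81.1 CPM for MSC, and 31.7 to 54.6 CPM for passaged cells. Its 8 conditions did not pass the F test (adjusted p = 0.0981), and the P0 Emcn- replicates were the furthest apart in level of all its replicate pairs.

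*Acvrl1* (ENSMUSG00000000530; chromosome 15, 101128522 to 101145336, plus strand) encodes ALK1, the type I receptor best known from arterial and capillary endothelium. The P0 Emcn+ libraries gave 117 and 88.8 CPM, P0 Emcn- 57.3 and 130 CPM, Lung 68.1 and 108 CPM, and MSC 37.0 and 90.1 CPM. Passage P1 gave 99.9 and 77.0 CPM, P2 98.9 and 80.6 CPM, P3 89.9 and 69.0 CPM, and P4 101 CPM. All conditions with 2 libraries overlapped at least 1 other, and the F test over the conditions gave an adjusted p of 0.845. The passaged cells, with *Cdh5* at no more than 2.33 CPM, overlapped in *Acvrl1* with P0 Emcn+ cells, with *Cdh5* at 5118 CPM or more. The gene overlaps *Gm16031* on the opposite strand over 127 exonic bases.

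*Eng* (ENSMUSG00000026814; chromosome 2, 32646595 to 32682669, plus strand) encodes endoglin, which the study counts among its sinusoidal markers. It reached 580 and 754 CPM in P0 Emcn+, with P0 Emcn- at 79.4 and 93.6 CPM, Lung at 161 and 310 CPM, and MSC at 139 and 146 CPM. For the passages the values were 72.4 and 76.1 CPM (P1), 88.8 and 89.3 CPM (P2), 117 and 104 CPM (P3) and 124 CPM (P4). P0 Emcn+ was above every other library, and the step from P0 Emcn+ to Lung passed the test between neighbours (adjusted p = 0.00136), while no later step did. Within Lung, the library with more *Eng* (replicate 2) also had more *Cdh5* and more *Emcn* (125 against 32.6 CPM). In P0 Emcn- that was not so, since replicate 1 held 119 CPM of *Cdh5* and less *Eng* than replicate 2 with 6.35 CPM. The *Eng* exons share 61 bases with *Fpgs* on the opposite strand.

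*Tgfbr3* (ENSMUSG00000029287; chromosome 5, 107106570 to 107289629, minus strand) encodes betaglycan, the co-receptor that presents TGF-beta2. Here P0 Emcn+ was lowest, with 172 and 167 CPM, followed by MSC with 271 and 281 CPM. P0 Emcn- had 755 and 965 CPM, Lung 645 and 893 CPM, P1 999 and 907 CPM, P2 758 and 832 CPM, P3 630 and 728 CPM, and P4 711 CPM. The 11 Emcn- libraries, from 630 to 999 CPM, lay above both MSC and P0 Emcn+. P3 differed from MSC (adjusted p = 0.00126) and MSC from P0 Emcn+ (adjusted p = 0.00699), and the neighbours among the Emcn- conditions did not differ beyond their spread. *Gm43422* overlaps 297 bases of its exons on the same strand.

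Over all 8 members, 6 varied between the conditions by the F test (adjusted p under 0.05 over 19401 genes), against 63.5% of all genes tested. Of the 56 steps between neighbouring conditions in the members' orders, 6 passed the same limit. Those of *Tgfb1* and *Tgfb3*, and that from MSC to P0 Emcn+ in *Tgfbr3*, join conditions that share no batch. Over all genes, 18.2% of tests of these same pairs of conditions passed. The pairs are neighbours in the members' own orders and not in those of other genes, so these shares cannot be compared.

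The 2 co-receptors exchanged places between the P0 populations. On the scale of CPM per kb, the log2 ratio of *Eng* to *Tgfbr3* was 2.45 and 2.87 in P0 Emcn+ and -2.56 and -2.67 in P0 Emcn-. It was -1.31 and -0.83 in Lung, -0.27 and -0.25 in MSC, while P1 had -3.09 and -2.88, P2 -2.40 and -2.53, P3 -1.73 and -2.12 and P4 -1.83. *Eng* transcripts thus outnumbered those of *Tgfbr3* in P0 Emcn+ and in no other library. The log2 ratio of the type I receptors *Acvrl1* and *Tgfbr1* was 1.62 and 1.45 in P0 Emcn+, 1.49 to 1.96 in P1 and P2 and 1.43 to 1.73 in P3 and P4. Below these stood Lung, at 0.52 and 1.22, and MSC, at -0.04 and 0.77, and the P0 Emcn- replicates disagreed on it, at -0.53 and 1.58. *Tgfbr2* exceeded *Tgfbr1* in every library, with log2 ratios of 3.25 and 3.00 in P0 Emcn+ against 1.14 and 1.61 in P0 Emcn-, and both MSC values, 3.42 and 2.00, both Lung values, 2.52 and 2.73, and the passaged libraries, at 2.19 to 2.79, lay above the latter.

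**Figure D3:**
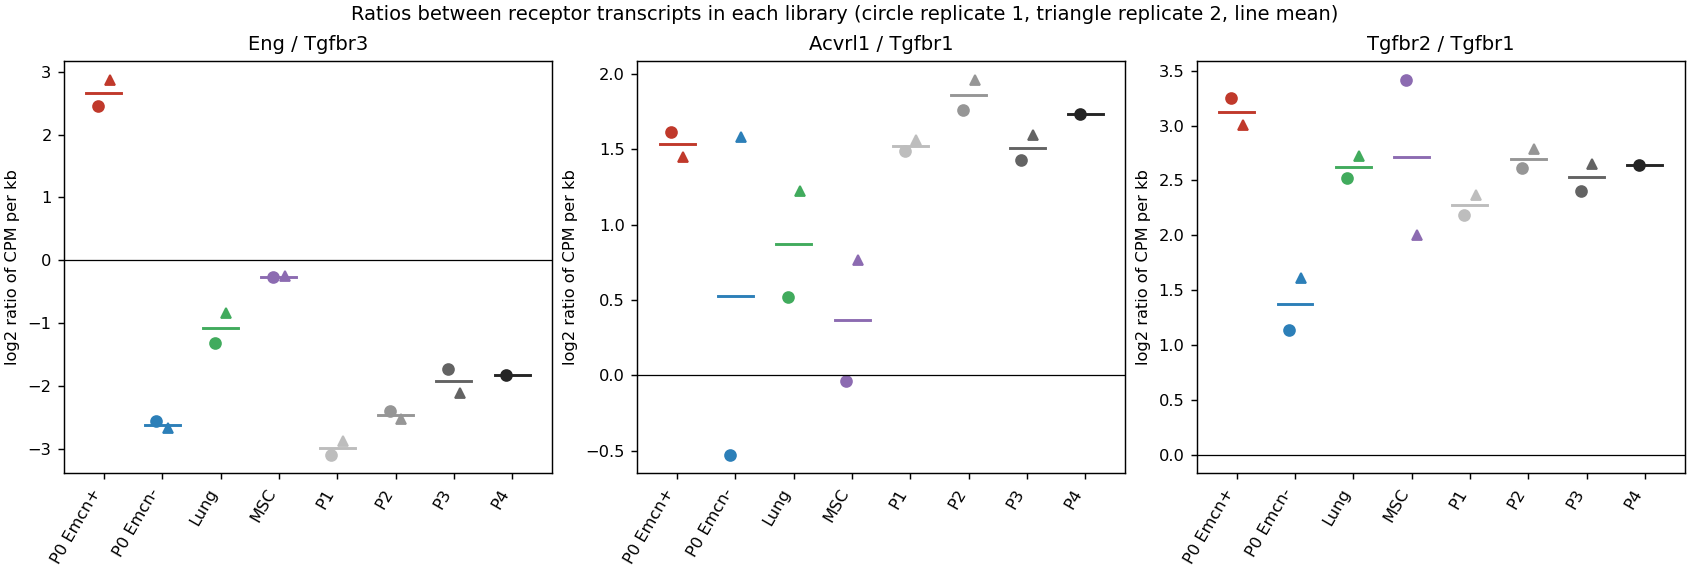
Log2 ratio of CPM per kb between 2 receptor genes (y axis) in each library by condition (x axis), for *Eng* over *Tgfbr3*, *Acvrl1* over *Tgfbr1* and *Tgfbr2* over *Tgfbr1*, with circles for replicate 1, triangles for replicate 2 and a line at the mean. *Eng* over *Tgfbr3* is above 0 in P0 Emcn+ alone (2.45 and 2.87).

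The contrast by Emcn status asked how the 2 sorted populations of the first culture differ, and the P0 libraries pair up within batches. P0 Emcn+ cells had more *Eng*, *Tgfb1* and *Tgfb2* and less *Tgfb3* and *Tgfbr3* than P0 Emcn- cells. In all, 5 of 8 members passed both limits (adjusted p under 0.05, with a log2 fold change beyond 1.5 in either direction), 3 higher and 2 lower, where 19.2% of all genes passed, 7.79% higher and 11.4% lower. *Eng* was higher by 2.98 ± 0.27 (log2 fold change ± SE, n = 2 and 2, edgeR adjusted p = 2.68e-05), and *Tgfb1* by 2.62 ± 0.43 (adjusted p = 0.00107). *Tgfb3* was lower, at -3.92 ± 0.29 (adjusted p = 7.25e-06), and so was *Tgfbr3*, at -2.31 ± 0.20 (adjusted p = 1.75e-05). Within the 2 batches the log2 ratios were 3.01 and 2.87 for *Eng* and 3.14 and 2.33 for *Tgfb1*. They were -3.60 and -4.29 for *Tgfb3*, and -2.53 and -2.14 for *Tgfbr3*. *Tgfb2* was higher by 1.81 ± 0.43 (adjusted p = 0.00914), with within-batch ratios of 2.51 and 1.09. Its call rested on replicate 2 of each group: without that of P0 Emcn- it was 1.48 (adjusted p = 0.0702) and without that of P0 Emcn+ 1.47 (adjusted p = 0.0607).

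The signalling receptors moved less. *Tgfbr2* was 1.02 ± 0.32 higher in P0 Emcn+ (adjusted p = 0.0338), in both batches by about the same ratio (0.98 and 1.00), which is under the fold limit. *Tgfbr1* gave -0.81 ± 0.33 (adjusted p = 0.0867). For *Acvrl1* the difference was 0.17 ± 0.45 (adjusted p = 0.826), with a 95% interval from -0.82 to 1.17, and the batches went opposite ways (-0.55 and 1.03). A difference of up to about that size in *Acvrl1* could not be seen with these libraries. Beside these values stand the markers of other cells: all 10 endothelial markers were higher and all 8 fibroblast markers lower in P0 Emcn+, 4 of 8 mural and 5 of 7 osteolineage markers were lower, 2 of 10 macrophage markers (*Cd68* and *Cd14*) were higher, and 2 of the 4 megakaryocyte and platelet markers tested were lower, with a summed level of no more than 9.99 CPM in any library. Their part in the members' differences was not tested.

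**Figure D4:**
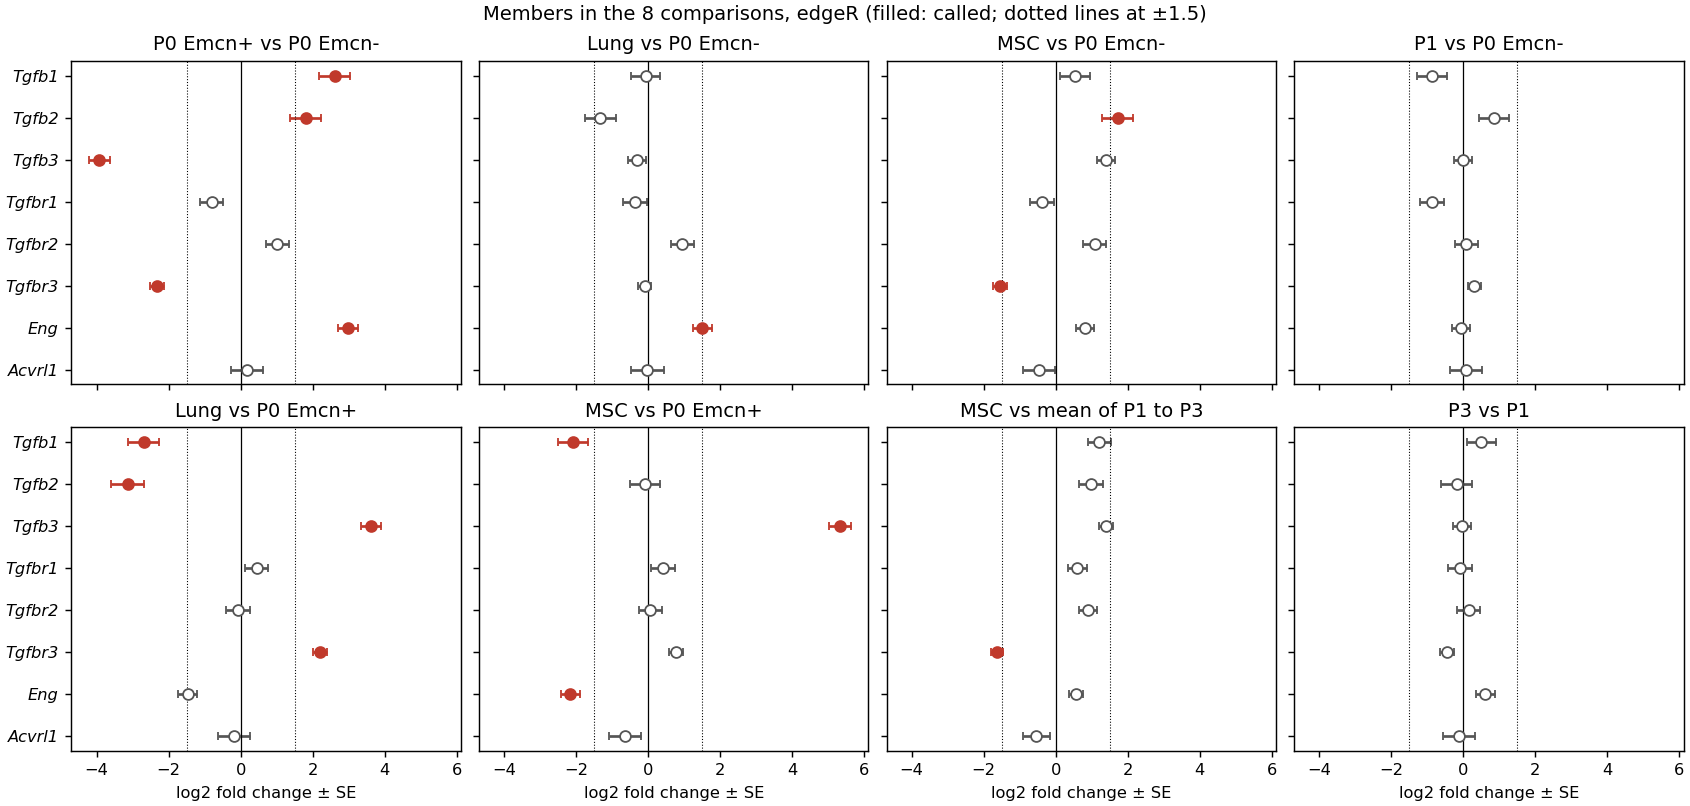
Log2 fold change with SE (x axis) of the 8 members (y axis) in each of the 8 comparisons from the edgeR fit, filled where a member passed both limits and with dotted lines at the fold limit of 1.5. The comparisons with P0 Emcn+ hold 5, 4 and 3 filled points, and those of P1 with P0 Emcn- and of P3 with P1 hold none.

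The promoters of *Tgfb1*, *Tgfb2* and *Eng* are shown because these 3 members passed both limits in the same direction in the contrast by Emcn status. Over all conditions their orders differed: by mean level, Lung was lowest for *Tgfb2* (19.2 CPM) but second highest for *Eng* (236 CPM). Each window holds the 250 bases before the RefSeq start of the gene (GRCm38.p6, given 5′ to 3′ on the gene's strand). Capitals mark GGAAG or its reverse complement CTTCC, the core letters of binding sites of ETS factors, a family that includes the endothelial factor ERG.
Tgfb1, chr7:25686752-25687001, plus strand: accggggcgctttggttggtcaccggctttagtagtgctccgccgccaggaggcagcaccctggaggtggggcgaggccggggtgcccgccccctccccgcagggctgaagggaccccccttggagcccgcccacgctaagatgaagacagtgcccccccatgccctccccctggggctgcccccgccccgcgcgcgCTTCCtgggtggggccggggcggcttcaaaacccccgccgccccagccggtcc
Tgfb2, chr1:186705990-186706239, minus strand: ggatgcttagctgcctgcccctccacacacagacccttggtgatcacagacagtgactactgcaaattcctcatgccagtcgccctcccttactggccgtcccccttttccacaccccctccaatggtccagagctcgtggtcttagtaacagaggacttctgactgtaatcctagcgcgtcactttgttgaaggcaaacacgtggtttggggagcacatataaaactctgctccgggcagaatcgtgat
Eng, chr2:32646345-32646594, plus strand: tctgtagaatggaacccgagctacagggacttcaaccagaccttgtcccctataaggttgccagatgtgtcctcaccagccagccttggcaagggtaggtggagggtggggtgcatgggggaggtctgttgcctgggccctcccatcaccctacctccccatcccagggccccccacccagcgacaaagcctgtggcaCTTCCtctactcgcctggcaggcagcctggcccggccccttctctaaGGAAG

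On either strand, GGAAG was found 2 times in the *Eng* window, 1 time in that of *Tgfb1* and 0 times in that of *Tgfb2*, and 64.1% of 32851 RefSeq promoter windows of the same length hold it. GGGCGG, the core of the GC box bound by SP1, was found 5 times for *Tgfb1* and 0 times for both others (32.7% of windows hold it). CAGACA, a SMAD-binding sequence, was found 1 time for *Tgfb2* and 0 times for both others (17.1% of windows). None of the 3 motifs contains another, and a match describes the window alone. RefSeq windows were at hand for 5 of the 8 members, including 2 for *Tgfbr1*, which hold 0 and 3 GGAAG, and 1 for *Tgfbr2*, which holds 3.

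Around the receptors, the latency and activation genes, which store the secreted ligand in the matrix and release it, had 2 of 12 members higher and 6 lower in P0 Emcn+ than in P0 Emcn- (median log2 fold change -0.99, against -0.06 over all genes). Of all genes 7.79% were higher and 11.4% lower. The cell-surface carrier *Nrros* stood at 93.5 and 85.6 CPM against 5.92 and 4.44 (4.13, adjusted p = 0.000512). Thrombospondin *Thbs1*, an activator of latent TGF-beta1, stood at 3636 and 4914 CPM against 421 and 1272 (2.37, adjusted p = 0.00535). Fibrillin *Fbn1*, the microfibril to which latent complexes bind, was at 36.6 and 58.1 CPM against 3159 and 2867 (-5.96, adjusted p = 5.17e-06), and the activating integrin subunit *Itgb8* at 0.127 and 0.464 CPM against 6.92 and 5.55 (-4.41, adjusted p = 0.000116). The 4 other genes that were lower are the latent TGF-beta binding proteins *Ltbp1* to *Ltbp4*.

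Of the ALK1 ligands and partner receptors 8 of 10 were tested, with 0 higher and 3 lower (median -1.04), against 7.79% and 11.4% of all genes. This list, called ALK1 partners below, holds other type I receptors beside the type II receptors that pair with a type I receptor. The called genes named from it here and below, *Bmpr1a*, *Bmpr1b* and *Acvr1c*, are type I receptors. The type II receptors *Bmpr2* (mean 281 CPM in P0 Emcn+ against 181 in P0 Emcn-), *Acvr2a* (39.8 against 81.9) and *Acvr2b* (1.37 against 0.819) were not called. *Bmpr1a*, a type I BMP receptor, was at 3.17 and 2.94 CPM in P0 Emcn+ against 155 and 159 CPM in P0 Emcn- (-5.65, adjusted p = 1.66e-07). *Acvr1c*, a receptor for activin and nodal, was at 0.0634 and 0.386 CPM against 2.39 and 4.24 (-3.85, adjusted p = 0.0102), and without P0 Emcn+ replicate 1 its adjusted p was 0.0746. *Bmp10* had 0 counts in all 15 libraries and *Gdf2*, which encodes BMP9, had no more than 3 in any condition, so the main ligands of ALK1 were at or under the limit that a count of 0 allows in every condition.

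Among 6 SMAD effectors, 1 was higher and 1 lower (median 0.51), where 7.79% of all genes were higher and 11.4% lower. *Smad1* was at 353 and 355 CPM in P0 Emcn+ against 62.4 and 60.9 CPM (2.55, adjusted p = 1.1e-06), and *Smad9* at 0.475 and 0.386 CPM against 12.9 and 16.1 CPM (-5.01, adjusted p = 1.66e-06). Of 12 pathway inhibitors 2 were higher and 1 lower (median 0.43), where 19.2% of all genes were called in either direction. The decoy receptor *Bambi* was at 36.4 and 19.4 CPM against 5.41 and 4.03 (2.58, adjusted p = 0.00156), *Fkbp1a*, which keeps type I receptors inactive, at 718 and 925 CPM against 266 and 175 (1.93, adjusted p = 0.000102), and *Smad6*, the inhibitory SMAD of the BMP branch, at 6.46 and 6.30 CPM against 30.1 and 44.0 (-2.50, adjusted p = 0.000362).

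Of 12 TGF-beta induced genes 2 were higher and 4 lower (median -0.62), against 7.79% and 11.4% of all genes. The growth factor *Ccn2* was at 589 and 1092 CPM in P0 Emcn+ against 163 and 170 CPM (2.37, adjusted p = 0.00132). The matrix protein *Tgfbi* was at 29.4 and 78.3 CPM against 23.9 and 6.56 (1.82, adjusted p = 0.0397), and with batch terms its adjusted p was 0.0591. Without P0 Emcn+ replicate 2 it gave 0.96 (adjusted p = 0.312) and without P0 Emcn- replicate 2 it gave 1.20 (adjusted p = 0.169), and it also missed the limit without any 1 of the P1 to P3 libraries (adjusted p 0.0542 to 0.0555). *Postn* was at 11.1 and 18.0 CPM against 1817 and 1387 (-6.75, adjusted p = 5.37e-05) and *Col1a1* at 57.4 and 64.3 CPM against 5783 and 2891 (-6.12, adjusted p = 3.6e-05), and *Col1a2* and *Acta2* were also lower. The collagens are also in the fibroblast list and *Acta2* in the mural list. Of 9 ALK1 induced genes 1 was higher and 2 were lower (median -1.25): the arterial connexin *Gja5* at 3.99 and 20.1 CPM against 0.453 and 0.403 (4.80, adjusted p = 0.00219), *Tmem100* at 0.475 and 0.155 CPM against 8.64 and 17.0 (-5.23, adjusted p = 5.12e-05), and *Smad6*, which both lists hold.

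**Figure D5:**
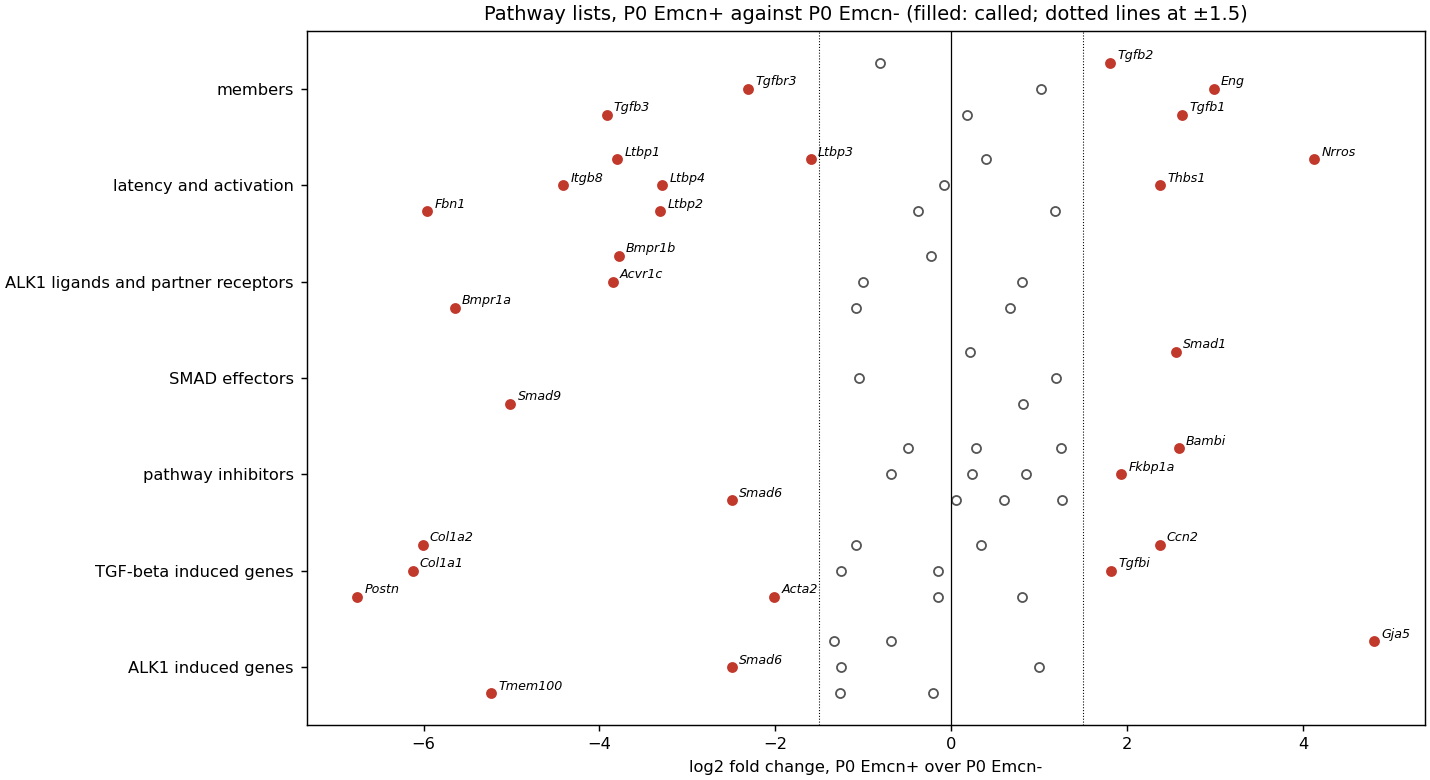
Log2 fold change of P0 Emcn+ over P0 Emcn- (x axis) for each tested gene of the members and the 6 pathway lists (y axis), filled and named where the gene passed both limits. The latency and activation genes hold 2 filled points on the right (*Nrros* and *Thbs1*) and 6 on the left.

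Lung cells, the Emcn- cells of another organ, were compared with P0 Emcn- cells, which share the same 2 batches, in the fit without a batch term. Only *Eng* passed both limits, 1 of 8 members against 3.83% of all genes. It was higher in Lung by 1.51 ± 0.26 (adjusted p = 0.00964), with within-batch ratios of 1.73 and 1.02, which lies at the fold limit: it fell under it with batch terms (1.45, adjusted p = 0.00351) and without Lung replicate 2 (0.98, adjusted p = 0.0239), the library with more *Cdh5*. Among the 2 groups alone its adjusted p was 0.160, and without P0 Emcn- replicate 1 its adjusted p was 0.0607 (1.40). *Tgfb2* gave -1.33 ± 0.43 (adjusted p = 0.123) and reached -2.12 (adjusted p = 0.0413) without Lung replicate 2, and *Tgfbr2* gave 0.95 ± 0.32 (adjusted p = 0.141). Macrophage markers were lower in Lung for 8 of 10 genes (22.0 to 23.5 CPM summed against 211 to 257), and their part was not tested. Of the pathway lists a single gene passed, the Notch and ALK1 target *Hey1*, at 0.0276 and 0.0922 CPM, 3 counts in all, in Lung against 8.56 and 2.62 CPM (adjusted p = 0.0192), and it no longer passed without either Lung library or without P0 Emcn- replicate 1. The other 5 lists had 0 calls by edgeR, with 3 latency genes, 2 ALK1 ligands and partners, 0 SMAD effectors, 2 inhibitors and 2 TGF-beta induced genes at an unadjusted p under 0.05, and with 2, 1, 0, 0 and 1 calls by DESeq2.

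Against P0 Emcn+, which enters this comparison and the one by Emcn status alike, Lung differed in 4 of 8 members (21.1% of all genes). *Tgfb1* was lower, at -2.69 ± 0.43 (adjusted p = 0.000848), and *Tgfb2* lower, at -3.14 ± 0.46 (adjusted p = 0.000483), with both batches in the same direction. *Tgfb3* was higher by 3.62 ± 0.28 (adjusted p = 1.13e-05) and *Tgfbr3* by 2.22 ± 0.20 (adjusted p = 2.3e-05). *Eng* gave -1.47 ± 0.26 (adjusted p = 0.00136), just under the fold limit, and passed it with batch terms (-1.52). In the lists, 6 latency genes were higher and 1 lower, 2 ALK1 partners higher, 1 SMAD effector higher and 1 lower, 1 inhibitor higher and 3 lower, 4 TGF-beta induced genes higher, and 3 ALK1 induced genes higher and 2 lower. The 2 largest of each list and direction were, as mean CPM in Lung against P0 Emcn+, *Ltbp1* (352 against 5.10) and *Fbn1* (1549 against 47.4) up and *Nrros* (2.37 against 89.5) down. For the receptors and SMADs they were *Bmpr1a* (165 against 3.05), *Bmpr1b* (0.898 against 0.0193) and *Smad9* (16.3 against 0.431) up and *Smad1* (51.4 against 354) down. *Smad6* was up (25.2 against 6.38) and the inhibitors *Bambi* (6.18 against 27.9) and *Tgif1* (29.2 against 107) down. *Col1a2* (4398 against 89.7), *Postn* (685 against 14.6), *Hey2* (1.56 against 0.0580) and *Tmem100* (6.84 against 0.315) were up, and *Hey1* (0.0599 against 11.1) and *Gja5* (1.64 against 12.0) down. Without P0 Emcn+ replicate 2, *Gja5* gave -1.27 (adjusted p = 0.246), and it also missed the limit without either Lung library. *Hey2* missed it without P0 Emcn+ replicate 1 (adjusted p = 0.0638) or Lung replicate 2 (adjusted p = 0.0606), and *Smad6* gave 1.44, under the fold limit, without Lung replicate 2. All 8 fibroblast and 5 of 8 mural markers were higher in Lung, and 9 of 10 endothelial and all 10 macrophage markers were lower (macrophage sum 22.0 to 23.5 CPM against 595 to 597). Of the osteolineage markers 3 of 7 were higher and 1 lower. The part of these cells in the members' differences was not tested.

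MSC, the stromal comparator, share no batch with the P0 cells. No batch term spans these groups, so a result with batch terms is not corrected for the batch between them. Against P0 Emcn-, 2 of 8 members passed (18.7% of all genes). *Tgfb2* was higher in MSC by 1.72 ± 0.43 (adjusted p = 0.0126), which dropped to 1.35 without MSC replicate 1 and to 1.36 without P0 Emcn- replicate 2, both with an adjusted p above the limit. *Tgfbr3* was lower, at -1.55 ± 0.19 (adjusted p = 0.000327), and at -1.39 without P0 Emcn- replicate 2. By adjusted p alone, which 35.3% of all genes passed, 5 members did: beside these 2, they were *Tgfb3* (1.40, adjusted p = 0.00253), *Tgfbr2* (1.08, adjusted p = 0.0274) and *Eng* (0.82, adjusted p = 0.0308). *Tgfb3* passed both limits without MSC replicate 1 (1.65) or without P0 Emcn- replicate 1 (1.58). The lists gave 3 higher and 1 lower latency genes, 1 higher and 1 lower ALK1 partners, no SMAD effector (2 at an unadjusted p under 0.05, 0 by DESeq2), 1 higher inhibitor, 3 higher and 1 lower TGF-beta induced genes, and 1 higher and 1 lower ALK1 induced genes. In mean CPM of MSC against P0 Emcn-, the leading ones were *Itgb6* (5.13 against 0.0252), *Thbs1* (29478 against 846), *Bmpr1b* (13.9 against 0.252), *Ldlrad4* (46.7 against 10.0), *Ccn2* (2122 against 166), *Acta2* (912 against 75.7) and *Hey2* (5.15 against 0.126) up. *Nrros* (1.22 against 5.18), *Acvr1c* (0.276 against 3.31), *Tgfbi* (3.76 against 15.2) and *Tmem100* (2.39 against 12.8) were down, and of these *Tgfbi* did not pass with batch terms (adjusted p = 0.0603). Each of these 4 calls depended on single libraries or on the groups fitted. *Tgfbi* gave -0.73 (adjusted p = 0.403) without P0 Emcn- replicate 1 and had an adjusted p of 0.173 without MSC replicate 1. *Nrros* gave -1.43 (adjusted p = 0.133) without MSC replicate 1 and -1.79 (adjusted p = 0.103) without P0 Emcn- replicate 1. *Acvr1c* had an adjusted p of 0.0675 and 0.0796 without MSC replicate 1 and 2, and *Tmem100* of 0.0548 with the compared groups alone. Summed mural markers stood at 1302 to 1670 CPM in MSC against 216 to 350 CPM in P0 Emcn-, and 4 of 8 were higher. Macrophage markers stood at 24.0 to 34.7 CPM against 211 to 257 CPM, and 9 of 10 were lower. The part of either was not tested.

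Against P0 Emcn+, MSC differed in 3 of 8 members (31.3% of all genes). *Tgfb3* was higher by 5.32 ± 0.30 (adjusted p = 1.17e-06), the widest difference of any member. *Eng* was lower, at -2.16 ± 0.26 (adjusted p = 0.000102), and *Tgfb1* lower, at -2.08 ± 0.42 (adjusted p = 0.00237). *Tgfbr3* was 0.77 ± 0.19 higher (adjusted p = 0.00699), under the fold limit. In the lists, 8 latency genes were higher and 1 lower, 2 ALK1 partners higher, 1 SMAD effector higher and 1 lower, 2 inhibitors higher and 2 lower, 6 TGF-beta induced genes higher and 1 lower, and 4 ALK1 induced genes higher and 2 lower. The leading ones up, in mean CPM of MSC against P0 Emcn+, were *Itgb6* (5.13 against 0.0386), *Ltbp1* (401 against 5.10), *Bmpr1b* (13.9 against 0.0193), *Bmpr1a* (320 against 3.05), *Smad9* (16.9 against 0.431), *Smad6* (38.2 against 6.38), *Ldlrad4* (46.7 against 10.0), *Postn* (1401 against 14.6), *Col1a1* (3175 against 60.9), *Hey2* (5.15 against 0.0580) and *Tmem100* (2.39 against 0.315). Down were *Nrros* (1.22 against 89.5), *Smad1* (36.9 against 354), *Fkbp1a* (200 against 822), *Bambi* (7.62 against 27.9), *Tgfbi* (3.76 against 53.9), *Gja5* (0.163 against 12.0) and *Hey1* (1.75 against 11.1), of which *Gja5* and *Hey1* did not pass with batch terms (adjusted p = 0.993 and 0.0905). *Hey1* also missed the limit without P0 Emcn+ replicate 1 (-1.44, adjusted p = 0.282) or MSC replicate 1 (-1.82, adjusted p = 0.156), as well as without any 1 of the P1 or P3 libraries, and *Bambi* without P0 Emcn+ replicate 1 (-1.31, adjusted p = 0.0530). All 10 endothelial and all 10 macrophage markers were lower in MSC (macrophage sum 24.0 to 34.7 CPM against 595 to 597), and all 8 fibroblast, all 8 mural and 6 of 7 osteolineage markers were higher. Their part was not tested.

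The passages followed the Emcn- cells beyond the first culture, a step that also crosses the batches and that no batch term spans. At P1 against P0 Emcn-, 0 of 8 members passed both limits by edgeR, DESeq2 or DESeq2 with ashr, against 8.84% of all genes, and 1 had an unadjusted p under 0.05. That 1 was *Tgfbr1*, at -0.87 ± 0.33 (adjusted p = 0.0918). *Tgfb1* gave -0.88 with a 95% interval from -1.80 to 0.04, and 0.01 without P0 Emcn- replicate 1, and *Tgfb2* gave 0.85 with an interval from -0.09 to 1.80. The intervals were narrower for *Eng* (-0.62 to 0.50), *Tgfb3* (-0.56 to 0.56) and *Tgfbr3* (-0.11 to 0.72). A difference as large as that between the P0 populations lay outside the intervals of these genes and of *Tgfb1*. For *Tgfb2* that difference (1.81) lay at the upper limit. As the step crosses the batches, each interval covers passage and batch together.

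The list of TGF-beta induced genes had 6 of 12 lower and 0 higher at P1 than at P0 Emcn- (median -1.28, against 0.02 over all genes). Of all genes 8.84% were called in either direction. *Tagln*, a smooth muscle actin-binding protein, was at 5.32 and 4.66 CPM against 48.1 and 37.7 (-2.95, adjusted p = 0.0398), *Col1a1* at 469 and 647 CPM against 5783 and 2891 (-2.81, adjusted p = 0.00523), and *Ccn2*, *Col1a2* and *Acta2* were also lower. The count was 2 without P0 Emcn- replicate 1, 0 without P1 replicate 1 and 2 without P1 replicate 2, so it rested on single libraries. Of 12 inhibitors 2 were lower, both of them genes that TGF-beta induces as feedback: *Pmepa1* at 20.9 and 19.9 CPM against 94.7 and 55.6 (-1.73, adjusted p = 0.00961) and *Skil* at 12.0 and 10.7 CPM against 56.6 and 24.2 (-1.68, adjusted p = 0.0220), and neither passed without P0 Emcn- replicate 1. Among latency genes the integrin subunit *Itgb6* was higher, at 1.37 and 2.30 CPM against 0.0504 and 0 CPM, and *Ltbp2* lower, at 29.7 and 40.6 CPM against 272 and 83.0 (-2.19, adjusted p = 0.0498), which did not pass with batch terms (adjusted p = 0.0600) and was -1.09 without P0 Emcn- replicate 1. *Hey1* was the 1 ALK1 induced gene that was lower (0.227 CPM on average against 5.59), and it missed the limit without P0 Emcn- replicate 1 or either P1 library (adjusted p 0.117 to 0.131). The ALK1 partners and the SMAD effectors had 0 calls by edgeR and DESeq2, with 0 and 2 genes at an unadjusted p under 0.05. Summed fibroblast markers were 6283 to 6951 CPM at P1 against 16482 to 21434 CPM at P0 Emcn-, 3 of 8 of them lower, and 3 of 8 mural and 3 of 7 osteolineage markers were lower, and their part was not tested.

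P1 and P3 share their batches, but the fit held no batch term. The correlation of same-numbered P1 and P3 libraries (0.354) was therefore not used. From P1 to P3, 0 of 8 members passed by edgeR, DESeq2 or DESeq2 with ashr, against 0.222% of all genes, and 2 had an unadjusted p under 0.05. These were *Eng*, at 0.61 ± 0.25 (adjusted p = 0.325, within-batch ratios 0.70 and 0.45), and *Tgfbr3*, at -0.46 ± 0.19 (adjusted p = 0.324, within-batch -0.67 and -0.32). The log2 ratio of *Eng* to *Tgfbr3* was higher at P3 than at P1 in both batches, but neither gene passed a test. In the lists *Ccn2* was the only call, at 240 and 293 CPM at P3 against 22.4 and 41.9 CPM at P1 (3.09 ± 0.42, adjusted p = 0.0294), and it was lost without any 1 of the P1, P2 or P3 libraries (adjusted p 0.0624 to 0.199). The other lists had 0 calls by edgeR and DESeq2, with 3 latency genes, 1 ALK1 partner, 3 SMAD effectors, 2 inhibitors and 1 ALK1 induced gene at an unadjusted p under 0.05. Summed macrophage markers were 73.2 to 234 CPM at P1 and 14.5 to 17.8 CPM at P3.

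Set against the mean of P1 to P3, with which both MSC libraries share 1 batch, MSC differed in 1 of 8 members (14.2% of all genes). Same-numbered P1 to P3 libraries share a batch, and their deviations from the group means were correlated (0.354 to 0.451). The fit counted these libraries as independent, so the SE and p-values of this comparison may be too small. *Tgfbr3* was lower, at -1.63 ± 0.17 (adjusted p = 0.000124), and at -1.57 on the log2 ratio within the shared batch. By adjusted p alone, which 32% of all genes passed, 5 members did, and the 3 ligands were higher in MSC: *Tgfb3* 1.40 (adjusted p = 0.000521), *Tgfb1* 1.21 (adjusted p = 0.0153) and *Tgfb2* 0.98 (adjusted p = 0.0438), with within-batch ratios of 1.26, 1.31 and 1.20. The fifth was *Tgfbr2* (0.89, adjusted p = 0.0214). *Tgfb1* (1.57) and *Tgfb3* (1.65) passed both limits without MSC replicate 1. *Eng* (0.57, adjusted p = 0.0521), *Tgfbr1* (0.60, adjusted p = 0.104) and *Acvrl1* (-0.54, adjusted p = 0.310) did not pass.

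In the same comparison, 5 of 12 TGF-beta induced genes were higher in MSC and 2 lower (median 1.22, against 0.01 over all genes). Of all genes 14.2% were called in either direction. The smooth muscle actin *Acta2* was at 789 and 1035 CPM against a mean of 12.6 (6.16, adjusted p = 8.26e-06) and *Tagln* at a mean of 294 CPM against 5.80 (5.58, adjusted p = 0.000144), both of which are also mural markers, 5 of 8 of which were higher. Lower were *Tgfbi* (3.76 against 18.6 CPM, -2.41, adjusted p = 0.00929) and the cell cycle inhibitor *Cdkn2b* (37.4 against 105 CPM, -1.58, adjusted p = 0.000459). *Tgfbi* missed the limit without MSC replicate 1 (-1.94, adjusted p = 0.0904), and *Cdkn2b* fell under the fold limit without MSC replicate 2 (-1.35). Of the latency genes 3 were higher, led by *Thbs1*, at 39654 and 19304 CPM against a mean of 619 (5.50, adjusted p = 1.29e-05), and *Ltbp2* (2.41, adjusted p = 0.00401), which gave 1.55 (adjusted p = 0.0948) without MSC replicate 2. Of the inhibitors 3 were higher, *Pmepa1* (93.5 and 168 CPM against a mean of 17.8, 2.79, adjusted p = 5.64e-05), *Skil* (2.26, adjusted p = 0.000446) and *Smad7*. Among ALK1 partners *Bmpr1b* was higher (4.13, adjusted p = 0.000196) and *Acvr1c* lower (-2.98, adjusted p = 0.0192), the latter not without MSC replicate 1 (adjusted p = 0.0942) or 2 (adjusted p = 0.125). Of the ALK1 induced genes 3 were higher and 1 lower: *Hey2* (3.97, adjusted p = 0.00126), *Smad7* and *Hey1* (2.18, adjusted p = 0.0448, but 0.19 without MSC replicate 2 and over 0.05 in its adjusted p without any 1 of 7 other libraries) against *Tmem100* (-2.96, adjusted p = 0.000512). No SMAD effector passed by edgeR or DESeq2, and 4 had an unadjusted p under 0.05. Of the endothelial markers 7 of 10 were higher and 1 lower in MSC, of the osteolineage markers 4 of 7 were higher, and of the macrophage markers 5 of 10 were lower, and their part was not tested.

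The genes whose levels followed each member most closely over the 15 libraries were named by the highest Pearson correlation of log2(CPM + 1), given as a description, since the libraries share conditions and batches. For *Tgfb1* they were *Nes* (r = 0.988), *Pgf* (0.985) and *Apln* (0.981), and for *Eng* they were *Ehd4* (0.981), *Shroom4* (0.974) and *Chrnb1* (0.966). For *Tgfb3* they were *Lix1l* (0.982), *Epdr1* (0.981) and *Sdc2* (0.975), and for *Tgfbr3* they were *Arhgap10* (0.985), *Sned1* (0.984) and *Plekhf1* (0.982). *Tgfb2* was followed by *Mrgpre* (0.921), *Kif1b* (0.917) and *Usp22* (0.909), *Tgfbr1* by *Cisd2* (0.922), *Acsl3* (0.893) and *Mtdh* (0.886), and *Tgfbr2* by *Jazf1* (0.904), *St3gal5* (0.882) and *Lrrc7* (0.881), the last at no more than 0.889 CPM. The closest for *Acvrl1* were the least alike, *Bcl2* (0.820), *Zfp217* (0.787) and *Adm* (0.764).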

How the data were processed

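The data are bulk RNA-seq of 15 libraries and 8 conditions, with conditions, replicate numbers and batches taken from the labels. The authors ran the nf-core RNASeq pipeline (STAR on GRCm38, Salmon on an Ensembl annotation), merged the estimates per gene with tximport, and deposited counts as whole numbers for 44674 genes, without normalization. Rounding and strand setting are not described. Salmon shares ambiguous reads between transcripts by estimation. Rows without a symbol numbered 8, and 0 columns lacked a sample.

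Counts were tested with edgeR 4.0.16 (R 4.3.3): filterByExpr (minimum count 10, total 15; 19401 genes tested), TMM scaling, and a quasi-likelihood fit of all 15 libraries with 1 coefficient per condition and no batch term (7 residual and 3.07 prior degrees of freedom, so that P4, with 1 library, borrows its spread from the others). Benjamini-Hochberg adjustment ran over all genes tested. A gene was called where its adjusted p was under 0.05 and its log2 fold change beyond 1.5 in either direction. The study used the same numbers, but on DESeq2 fold changes shrunken with ashr, while the edgeR fold changes here were not shrunken. SE is the log2 fold change divided by the square root of F, and intervals cover 95%. CPM uses library totals and the fit uses TMM factors, so both can differ slightly. Alternatives were DESeq2 1.42.0, ashr 2.2.63 shrinkage, RLE factors, no filter or at least 50 counts in 2 libraries, batch terms as a replicate block, the compared groups alone, and each library left out. The batch terms separated the batches of P0 and Lung from each other, and likewise those of the passages and MSC. No term spans P0 and Lung against the passages and MSC, so comparisons across that line stay uncorrected for batch with these terms. Levels per length used merged exons of a GRCm38 annotation.

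The labels put same-numbered P0 and Lung libraries, and same-numbered P1 to P3 libraries, in shared batches. The correlation of their deviations from the group means was 0.139 to 0.209 for the first and 0.354 to 0.451 for the second. The fits of P0 Emcn+ and of P1 against P0 Emcn- were also run on simulated counts with known changes. Those counts had the same spread for all genes and no batches, so they check the code and not the spread of these libraries.

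The members and gene lists were chosen with earlier results of these data known. Named were the 8 members, the 2 called genes of largest absolute log2 fold change per pathway list and direction, some other called list genes by name only, and per member the 3 genes most correlated with it, leaving out predicted genes. The libraries of single cells in the series were not used here.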

Additional observations from a re-analysis of the deposited data

How the results depend on the processing

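With 2 libraries per condition (1 for P4), a fold change near 1.5 or an adjusted p near 0.05 can change sides with 1 library. Over all alternatives, 2717 values kept direction and side of the limits, 111 lost the call, 20 gained it and 4 changed sign.

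The count of members called for Lung against P0 Emcn- was 0 with ashr, with at least 50 counts in 2 libraries, with the replicate block and with only the compared groups, and 0 to 1 when 1 library was left out. For MSC against P0 Emcn- it was 1 with ashr and 5 by adjusted p alone (0 to 3 with 1 library out), and for MSC against the mean of P1 to P3 it was 5 by adjusted p alone (1 to 3). The range with 1 library out was 4 to 5 for P0 Emcn+ against P0 Emcn-, 4 to 5 for Lung and 3 to 3 for MSC against P0 Emcn+, 0 to 0 for both passage comparisons, 5 to 6 for the F test and 5 to 7 for the neighbour steps. The changes of sign came from leaving out 1 library: *Acvrl1* in P0 Emcn+ against P0 Emcn- ranged from -0.29 to 0.88, *Tgfb1* in MSC against P0 Emcn- from -0.023 to 1.42 and *Tgfb1* in P1 against P0 Emcn- from -1.43 to 0.014. The cause was not tested.

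The replicate block changed the member calls of *Eng* alone (Lung against P0 Emcn-, 1.45, and against P0 Emcn+, -1.52). Over all genes, Lung against P0 Emcn- gave 743 calls and 145 with only the compared groups, 406 without Lung replicate 1 and 455 without P0 Emcn- replicate 1. MSC against P0 Emcn- gave 3630 and 2396 with only the compared groups. P1 against P0 Emcn- gave 1715 and 968 with only the compared groups, 854 without P0 Emcn- replicate 1, 805 without P1 replicate 1 and 930 without P1 replicate 2. P3 against P1 gave 43 and 304 with DESeq2, 149 with ashr, 170 without a filter, 106 with the block, 153 with only the compared groups and 0 to 78 with 1 library out.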
